A study of Danio rerio with 16 samples.

Results

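RNA of zebrafish embryos that had been under radiofrequency radiation (RFR) was compared with RNA of unexposed embryos at 48 h post fertilization (hpf). The radiation, of 3.5 GHz at roughly 30 dBm, was applied between 6 hpf and 48 hpf, so the embryos were taken as it ended. RFR in this band carries 5G telephony, and the labels give the exposed group under that name. The comparison uses 8 of the 16 libraries of the series, 4 of control and 4 of RFR embryos collected at 48 hpf. All were made from total RNA of whole embryos and read on a DNBseq-G50 instrument in pairs of 100-base reads. The remaining libraries, 4 of control and 4 of RFR-exposed larvae, were collected at 120 hpf, after the exposure had ended. A row of the deposited table was taken when 4 or more of the 8 libraries reached 0.5 FPKM, which left 20019 of 32513 rows. FPKM is a number of sequenced fragments divided by the length of the transcript and the size of the library. The labels give no strain, genotype, sex or number of embryos per library, nor whether replicates came from separate clutches, so the p-values below rest on the spread among the libraries alone, part of which may be technical.

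At 48 hpf the zebrafish embryo is about to hatch. Its heart beats, embryonic blood circulates, and the yolk still feeds it. The trunk muscle contracts and the first neuronal circuits work. The retina is in the middle of its birth order: ganglion cells are made before the others, amacrine cells follow, and most photoreceptors are only beginning to form. The lens is filling with crystallins, the soluble proteins that make it transparent. Liver and exocrine pancreas have been set aside but carry little of their later output.

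The markers of this stage were present in all 8 libraries. The embryonic globin hbae3 stood between 2966 and 5014 FPKM, the hatching enzyme gene he1a between 229.7 and 681 FPKM, the muscle gene mylpfa between 3624 and 4087 FPKM and the neuronal gene elavl3 between 165.6 and 213 FPKM. The liver gene fabp10a (0.49 to 2.58 FPKM) and the pancreatic protease gene try (0.76 to 3.46 FPKM) were low, against at least 693 and 2633 FPKM in control larvae at 120 hpf. Depth after the authors' filter was 39603976 to 48933040 reads per library, of which 69.4 to 71.8% mapped, and rRNA took 0.15 to 0.30%. None of 10 such measures of depth and quality separated the groups (exact permutation test over the 70 splits, two-sided, lowest p = 0.171, adjusted p = 0.786; the smallest p this design allows is 0.0286).

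Before any gene is considered, 2 libraries stand apart from their labels' groups. On the first principal component, which held 28.8% of the variance of the 8 libraries, RFR replicates 2 to 4 lay at 14.7, 27.4 and 20.2. Control replicates 1, 3 and 4 lay at -8.06, -1.56 and -0.11, with control replicate 2 further out at -35.9. RFR replicate 1 lay at -16.8, among the controls. The second component (19.6%) set the replicate 4 libraries of both groups (-25.2 and -24.0) apart from the others. These are also the libraries whose raw read totals differ (40.18 M in RFR replicate 4 and 49.97 M in control replicate 4, against 47.48 M in each of the others). Correlation coefficients across genes were 0.977 to 0.986 within groups (12 pairs) and 0.970 to 0.986 between them (16 pairs), as a description, since genes are not independent replicates. For the main gene groups, values without RFR replicate 1 or control replicate 2 are given beside those of all 8 libraries.

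No gene passed the test. With limma on log2(FPKM + 0.5) and Benjamini-Hochberg adjustment over the 20019 genes, 0 genes (0%) had an adjusted p under 0.05, and the smallest adjusted p was 0.105. An unadjusted p under 0.05 was reached by 1843 genes (9.21%), of which 1307 (6.53%) had the higher mean in RFR embryos and 536 (2.68%) the lower. The values of all 4 RFR libraries lay above those of all 4 controls for 643 genes (3.21%) and below them for 275 (1.37%). The differences were small. For 97.1% of the genes the log2 fold change was within 0.5 of 0, and 60 genes lay beyond 1. The 95% confidence interval of the median gene, without adjustment for the number of genes, reached 0.29 log2 units, or 1.23-fold, to either side. The adjusted test asked for more. The cathepsin gene ctss2.1, 2.34-fold toward controls at an unadjusted limma p of 5.5e-06, did not pass (adjusted p = 0.105). Changes below 1.23-fold were mostly not detectable, and larger ones can also have been missed. Since no gene passed, all differences below are given as values and none as a change. In whole embryos, fewer cells of a type and less RNA per cell cannot be told apart.

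The count of called genes depended on 1 library. In a fit of all 16 libraries, which pools the spread with the 120 hpf groups, limma called 1 gene at an adjusted p under 0.05, lower in RFR embryos (0.005% of the genes tested, and 0 higher). Without RFR replicate 1 the same fit called 454, 409 higher (2.04% of the genes tested) and 45 lower (0.225%) in RFR embryos, and the values of 87 of these did not overlap between the groups when all 8 libraries were counted. Without control replicate 2 it called 3. In the fit of the 48 hpf libraries alone, leaving out RFR replicate 1 gave 0 called genes and 2808 with an unadjusted p under 0.05. RFR replicate 1 lay among the controls on the first principal component, so leaving it out favours differences between the groups. The 16-library fits with 1 library left out were also added after the data were seen. Calls and adjusted p-values of the 16-library fit without RFR replicate 1 are therefore given below as description only.

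The lean toward higher means went with the level of the gene. Of all genes tested, 12094 (60.4%) had the higher mean in RFR embryos and 7925 (39.6%) the lower, with a median log2 fold change of 0.04. Among genes with a mean of 1 to 3 FPKM the share with the higher mean was 65.2% and the median 0.08. At 30 to 100 FPKM the share was 49.8%, and among the 276 genes at 300 FPKM or more it was 35.9% with a median of -0.06. In the highest class, 2 genes had all RFR values above the controls and 23 had all below. After quantile normalization, which gives every library the same distribution, the medians of all classes lay between -0.01 and 0.00. Median-ratio scaling kept the trend, with a median of 0.04 at 1 to 3 FPKM and of -0.11 at 300 FPKM or more. Of genes with an unadjusted p under 0.05, 70.9% had the higher mean as deposited, 52.8% with quantile normalization (942 higher and 842 lower) and 47.7% with median-ratio scaling (834 and 914). For several abundant gene groups below, values under 1 or both of these scalings are therefore given beside those as deposited.

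**Figure D1:**
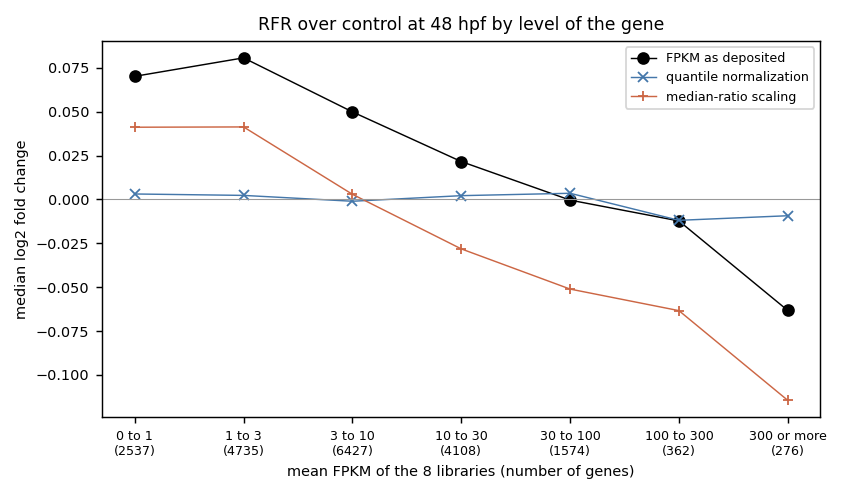
Median log2 fold change of RFR over control at 48 hpf (vertical axis) for genes grouped by their mean FPKM in the 8 libraries (horizontal axis, number of genes in brackets). Under the deposited FPKM values the median goes from 0.08 at 1 to 3 FPKM to -0.06 at 300 FPKM or more. Median-ratio scaling keeps this trend, from 0.04 to -0.11, and under quantile normalization the median stays near 0.

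On each side 15 genes were named, among those averaging 1 FPKM or more with a symbol other than a clone or locus name. Of those with the higher mean, the smallest p belonged to hmx4, which encodes a homeobox transcription factor of the developing ear and eye. Its level was 9.82, 12.6, 9.93 and 10.7 FPKM in the controls (replicates 1 to 4) and 16.1, 17.1, 16.1 and 15.22 FPKM in the RFR libraries (replicates 1 to 4). All RFR libraries lay above all controls, and RFR replicate 1 was as high as the others. The means were 10.8 ± 1.27 FPKM in controls and 16.1 ± 0.76 in RFR embryos (SD, n = 4 each), a log2 fold change of 0.57 ± 0.0931 (SE) or 1.48-fold, at a limma adjusted p of 0.468. The adjusted p was 0.0203 in the 16-library fit without RFR replicate 1, and 0.0203 to 0.828 over all alternatives.

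itm2ca, an integral membrane protein gene of the BRICHOS family, stood at 17.8, 17.8, 18.1 and 19.9 FPKM in controls and 23.1, 24.3, 24.9 and 23.5 in RFR embryos. foxc1b, a forkhead factor of vessels, somites and the tissue around the eye, stood at 20.6, 19.9, 20.9 and 20.6 FPKM in controls and 24.6, 26.3, 27.0 and 27.9 in RFR embryos. Both groups were tight here and did not overlap: the folds were 1.29 and 1.28 and the limma adjusted p 0.468 for each. s100w, which encodes a calcium-binding S100 protein, was at 15.7, 17.5, 16.9 and 17.4 FPKM in controls and 23.1, 22.2, 20.7 and 22.3 in RFR embryos, again without overlap.

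ndrg1b had the largest fold of the 15 named genes on the higher side. Its mammalian relative NDRG1 responds to hypoxia, metals and differentiation. Its level was 11.2, 9.72, 12.2 and 13.2 FPKM in the controls (replicates 1 to 4) and 14.5, 19.9, 19.5 and 23.7 FPKM in the RFR libraries (replicates 1 to 4). The RFR libraries were spread more widely than the controls, with replicate 1 nearest to them. The log2 fold change was 0.71 ± 0.145 (SE), or 1.64-fold (limma adjusted p = 0.468).

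sirt3 encodes the main deacetylase of the mitochondrial matrix. It stood at 3.05, 4.03, 3.97 and 4.08 FPKM in the controls (replicates 1 to 4) and 5.03, 7.15, 6.61 and 5.52 FPKM in the RFR libraries (replicates 1 to 4), with no overlap (1.53-fold, limma adjusted p = 0.468; 0.0145 in the 16-library fit without RFR replicate 1, and 0.0145 to 0.828 over all alternatives). Of the 7 sirtuin genes tested, 6 had the higher mean and sirt3 was the 1 without overlap. The median of the list was 0.10 log2 units, 0.02 after quantile normalization and 0.03 without control replicate 2.

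The other genes of that set of 15 were prdm13 and barhl2, given below with the retina, fam117ba, tshz3b, wscd1b and ldb2b, the protein phosphatase 1 inhibitor gene ppp1r14ba, and 2 genes of neurons. cnih2, a partner of AMPA glutamate receptors, was at 5.29, 4.65, 5.84 and 5.53 FPKM in controls and 6.28, 8.64, 8.91 and 8.89 in RFR embryos. cdk5r1a, the p35 activator of the neuronal kinase Cdk5, was at 3.41, 2.9, 3.51 and 3.39 FPKM in controls and 4.13, 5.44, 5.35 and 4.61 in RFR embryos. In both, RFR replicate 1 was the lowest of its group and still above the highest control. Among all 15, folds ran from 1.27 (barhl2) to 1.64 (ndrg1b), and each adjusted p was 0.468.

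On the lower side the smallest p of any gene belonged to ctss2.1, a cathepsin S gene. Cathepsin S is a lysosomal cysteine protease of macrophages and other antigen-presenting cells in mammals. Its level was 6.51, 8.36, 8.74 and 6.57 FPKM in the controls (replicates 1 to 4) and 3.7, 3.02, 2.37 and 2.67 FPKM in the RFR libraries (replicates 1 to 4). The highest RFR library was well under the lowest control, and the fold was 2.34 toward controls (log2 fold change -1.23 ± 0.145, SE; limma adjusted p = 0.105). With a pseudocount of 0.1 in place of 0.5 the adjusted p was 0.0407, and over all alternatives it was 0.0407 to 0.53.

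The 15 named genes on the lower side have a few known roles in common. shmt1, phgdh, psat1 and mat2ab act in serine, folate and methionine metabolism, and ctss2.1, ctsh, npc2, acp5a and apoeb in lysosomes and macrophages. wdr43 and riox2 act in the nucleolus. cad begins pyrimidine synthesis, aars charges alanine tRNA, bet1 serves transport from the endoplasmic reticulum to the Golgi, and rbp4l encodes a retinol-binding protein. All 15 were without overlap between the groups, with folds toward controls from 1.27 (wdr43) to 2.34 (ctss2.1). The genes of both sides were named for a small p in these same libraries, so separate groups were likely beforehand. Their limma adjusted p was 0.468, except for ctss2.1.

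**Figure D2:**
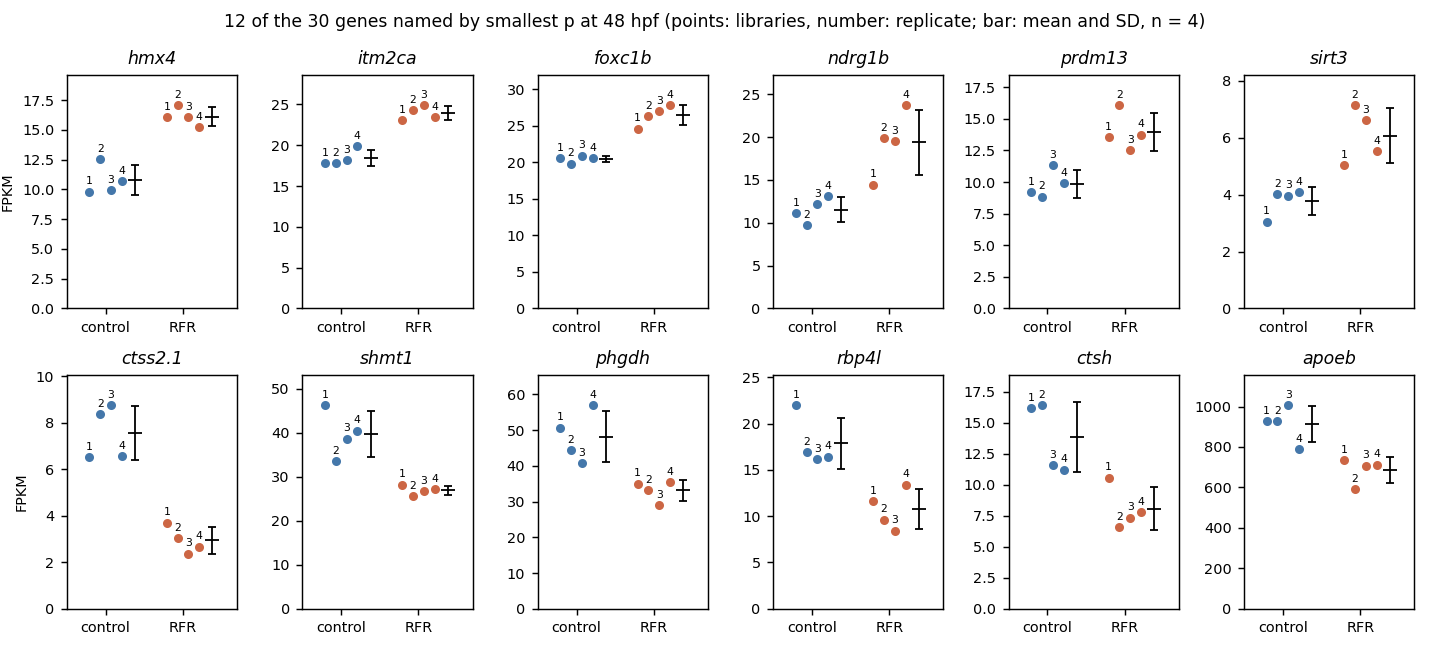
FPKM (vertical axis, from 0) of 12 of the 30 genes named by smallest p, in each control and RFR library at 48 hpf, with the replicate number above each point and the mean and SD (n = 4) at the right of each group. In the upper row every RFR point lies above every control point and in the lower row below, which naming by smallest p makes likely.

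The gene groups were described with 57 lists for the organs, cell types and pathways of the embryo. The lists and their members were chosen with earlier results of these data known, so their counts may in part follow from that choice. For most lists the count of members with the higher mean in RFR embryos and the median log2 fold change are given. For some of them the count without overlap is added. Over all genes tested the values to set beside these were 60.4%, 0.04 and, without overlap, 3.21% higher with 1.37% lower. Medians ran from -0.25 for ribosome biogenesis to 0.35 for lens crystallins. In 3 lists the library medians of the groups did not overlap: retinal ganglion and amacrine cells, axon guidance and adhesion, and pigment cells. For a single list the chance of such a separation in either direction is 0.0286 (exact permutation over 70 splits). Some of 57 lists can therefore separate by chance, and the 3 were not tested as a set.

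**Figure D3:**
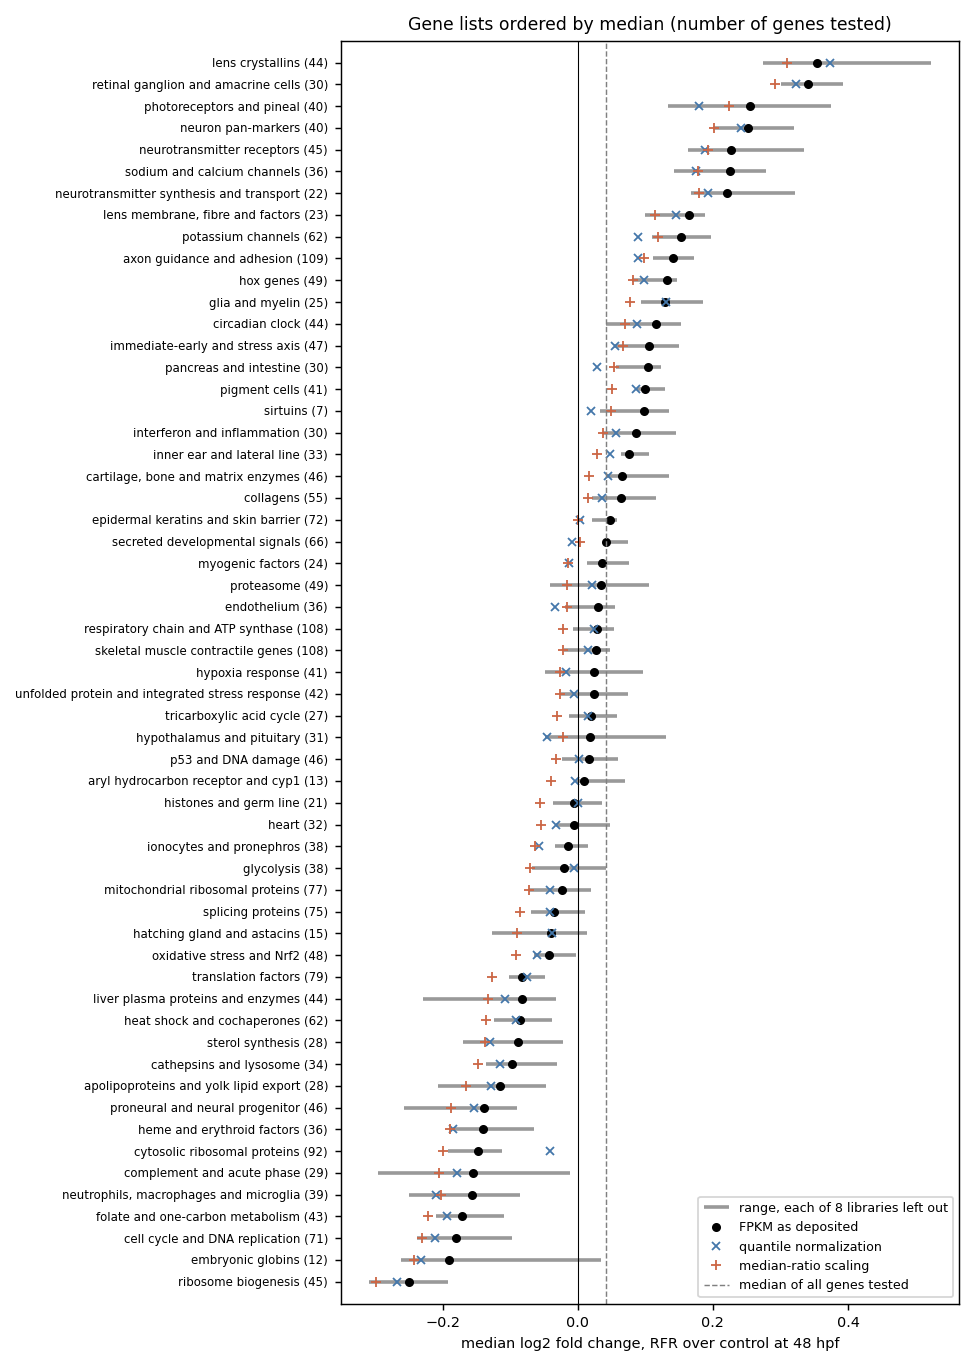
Median log2 fold change of RFR over control at 48 hpf (horizontal axis) for 57 gene lists, with the number of genes tested in brackets. Black points are the deposited FPKM values, grey bars the range when each of the 8 libraries is left out, crosses 2 other scalings, and the dashed line the median of all genes. Eye, lens and neuron lists lie to the right, and ribosome biogenesis, cell cycle, globin and folate lists to the left.

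Retinal ganglion cells send the axons of the optic nerve, and amacrine cells are the inhibitory interneurons of the inner retina. Of 30 genes of these cells, 29 had the higher mean in RFR embryos and 12 lay above all controls. The median log2 fold change was 0.34. Quantile normalization gave 0.32 and median-ratio scaling 0.29. It was 0.39 without RFR replicate 1 and 0.31 without control replicate 2. The library medians, relative to the mean of all 8 libraries, were -0.28, -0.29, -0.10 and -0.02 in control replicates 1 to 4 and -0.00, 0.23, 0.15 and 0.24 in RFR replicates 1 to 4. The groups do not overlap, with RFR replicate 1 just above control replicate 4. Many members also work outside the retina: isl1 marks motor and sensory neurons, tfap2a neural crest and skin, and slc32a1 all inhibitory neurons.

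prdm13 and barhl2 encode transcription factors that specify amacrine cells, as known from the mouse. prdm13 stood at 9.22, 8.85, 11.3 and 9.89 FPKM in the controls (replicates 1 to 4) and 13.6, 16.1, 12.5 and 13.8 FPKM in the RFR libraries (replicates 1 to 4). barhl2 stood at 27.7, 29.3, 31.4 and 30.8 FPKM in the controls (replicates 1 to 4) and 37.6, 42.4, 35.6 and 37.1 FPKM in the RFR libraries (replicates 1 to 4). Neither gene overlapped between the groups, and the folds were 1.4 and 1.27 (limma adjusted p = 0.468 for each).

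pax6b and pax6a encode the master regulators of eye development, which amacrine and ganglion cells keep expressing. pax6b was at 15.8, 15.5, 19.9 and 16.9 FPKM in controls and 22.9, 22.7, 21.4 and 21.2 in RFR embryos. pax6a was higher in level and closer between the groups, at 38.8, 52.4, 44.6 and 48.5 FPKM in controls and 54.6, 57.2, 52.8 and 53.7 in RFR embryos. The folds were 1.29 and 1.19, both without overlap (limma adjusted p = 0.468 and 0.505).

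rbpms2b, an RNA-binding protein gene of ganglion cells, was at 14.6, 17.3, 18.7 and 16.8 FPKM in controls and 22.0, 22.5, 22.0 and 20.7 in RFR embryos. tfap2a, an AP-2 factor of amacrine cells and neural crest, was at 58.5, 60.8, 71.4 and 73.5 FPKM in controls and 80.1, 84.9, 82.4 and 92.3 in RFR embryos, a difference of 1.29-fold. irx2a, an Iroquois homeobox gene, was at 10.4, 11.7, 12.5 and 13.7 FPKM in controls and 14.8, 16.9, 15 and 17.2 in RFR embryos. In all 3 the RFR libraries lay above the controls, RFR replicate 1 included. The others without overlap were ebf3a, slc32a1, pou4f1, calb1 and eomesa. slc32a1 encodes the vesicular carrier of GABA and glycine and was at 15.3, 14.5, 15.8 and 17.4 FPKM in controls and 17.5, 20.3, 20.1 and 22.5 in RFR embryos, where RFR replicate 1 (17.5) barely passed control replicate 4 (17.4).

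Of the POU and LIM homeobox genes of ganglion cells, pou4f2, isl2b and isl1 differed as much in the mean but overlapped. pou4f2, which ganglion cells need to mature, was at 13.9, 10.9, 17.0 and 18.5 FPKM in controls and 17.9, 26.8, 23.9 and 24.4 in RFR embryos. RFR replicates 2 to 4 lay above all controls and RFR replicate 1 below control replicate 4. isl2b (1.39-fold) and isl1 (1.28-fold) had the same arrangement. In the 16-library fit without RFR replicate 1, limma called 15 of the 30 genes of the list higher and 0 lower. The same fit, which favours such calls, called 2.04% of all genes tested higher.

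Photoreceptors and the pineal gland, the light-sensing organ on top of the brain, share the homeobox genes crx and otx5 and the proneural gene neurod1. Of 40 tested genes of these cells, 32 had the higher mean. In this list 1 gene lay above all controls and 1 below (2.5% each, against 3.21% and 1.37% of all genes tested). The median was 0.25, with 0.18 after quantile normalization, 0.13 without RFR replicate 3 and 0.37 without control replicate 4. otx5 stood at 16.1, 15.3, 19.9 and 25.9 FPKM in the controls (replicates 1 to 4) and 23.6, 37.7, 36.8 and 40.3 FPKM in the RFR libraries (replicates 1 to 4), crx at 22.9, 24.1, 33.1 and 44.3 FPKM in controls and 35.5, 63.4, 62.6 and 70.22 in RFR embryos, and neurod1 at 45.4, 43.2, 55.0 and 66.3 FPKM in controls and 61.3, 98.3, 95.0 and 87.3 in RFR embryos. In each, RFR replicates 2 to 4 were the 3 highest libraries and RFR replicate 1 lay inside the range of the controls, between control replicates 3 and 4. The folds were 1.77, 1.86 and 1.62, with limma adjusted p of 0.468, 0.472 and 0.468. Without RFR replicate 1, the 16-library fit gave 0.00579, 0.00889 and 0.00579. Over all alternatives the adjusted p was 0.00579 to 0.828 for otx5, 0.00889 to 0.828 for crx and 0.00579 to 0.828 for neurod1.

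aanat2, the enzyme gene that sets the melatonin rhythm of the pineal gland, was low, at 1.54, 0.71, 1.64 and 1.67 FPKM in controls and 1.62, 2.37, 2.26 and 3.47 in RFR embryos. Control replicate 2 was the lowest and RFR replicate 4 the highest. rbp4l went the other way, at 22.0, 16.9, 16.1 and 16.4 FPKM in the controls (replicates 1 to 4) and 11.6, 9.62, 8.45 and 13.4 FPKM in the RFR libraries (replicates 1 to 4), with no overlap. In unexposed larvae at 120 hpf its mean was 657 FPKM. The one photoreceptor gene above all controls was nrl, the rod factor in mammals.

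Proneural factors start neuronal differentiation and Notch targets hold progenitors back. Of 46 genes of this kind, 17 had the higher mean, 3 (pax6a, pax6b and sox1a) lay above all controls and 0 below, and the median was -0.14. It was -0.26 without RFR replicate 1 and -0.09 without control replicate 2. The list was divided. neurod1 and pax6b, which also stand in the retinal lists, had the smallest p and higher means, while the bHLH genes ascl1a, ascl1b and atoh1a and the Notch target her4.2 had lower means. ascl1a was at 15.8, 19.1, 19.4 and 16.6 FPKM in controls and 19.7, 13.1, 10.48 and 11.5 in RFR embryos. RFR replicates 2 to 4 were the 3 lowest libraries and RFR replicate 1 the highest of all 8. atoh1a, a factor of cerebellar and hair cell progenitors, was at 7.78, 11.6, 9.69 and 6.06 FPKM in controls and 9.75, 5.06, 3.98 and 4.54 in RFR embryos, again with RFR replicate 1 inside the control range. The limma adjusted p was 0.536 for ascl1a and 0.536 for atoh1a. It was 0.0279 and 0.0434 in the 16-library fit without RFR replicate 1, and over all alternatives 0.0279 to 0.828 for ascl1a and 0.0434 to 0.828 for atoh1a.

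**Figure D4:**
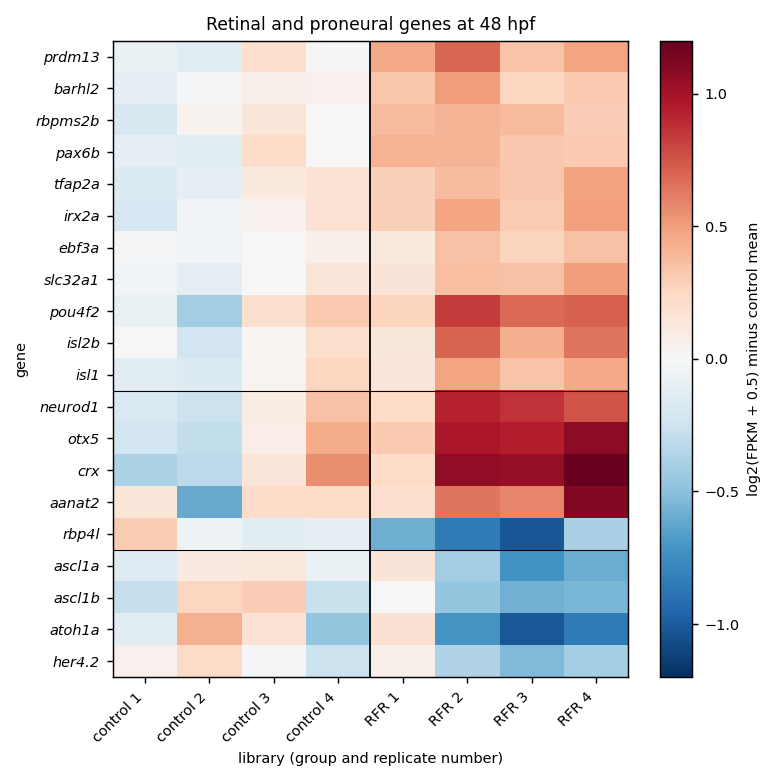
Relative level, as log2(FPKM + 0.5) minus the control mean, of 20 genes (rows) in the 8 libraries (columns) at 48 hpf, with red above and blue below the control mean. The upper block holds ganglion and amacrine cell genes, the middle block photoreceptor and pineal genes with rbp4l, and the lower block progenitor genes. The column of RFR replicate 1 is red in the upper block and near or above the control mean in the lower block.

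Lens crystallins fill the fibre cells of the lens. Of 44 tested, 43 had the higher mean in RFR embryos, but only 2 (4.5%, near the 3.21% of all genes tested) lay above all controls. The median was 0.35 (0.37 after quantile normalization), and it was 0.52 without RFR replicate 1 and 0.27 without control replicate 2. Library medians were -0.14, -0.54, -0.11 and -0.02 in control replicates 1 to 4 and -0.27, 0.35, 0.34 and 0.34 in RFR replicates 1 to 4. RFR replicate 1 was thus lower than 3 of the controls. Crystallin gamma M genes are near-identical copies, and how the authors' counting shared reads among them is not given, so single values of these copies are uncertain. crygmx, without overlap, was at 129.9, 118, 130 and 121 FPKM in controls and 144, 175, 152 and 157 in RFR embryos. crybb1, a beta crystallin gene, was at 822, 830.1, 942 and 939 FPKM in controls and 962, 1174, 1101 and 1140.0 in RFR embryos, 1.24-fold (limma adjusted p = 0.472). crygm2d15 was at 84.6, 60.7, 76.5 and 84.0 FPKM in controls and 67.4, 162, 145 and 185 in RFR embryos (1.72-fold, limma adjusted p = 0.488), where RFR replicate 1 lay inside the control range. In the 16-library fit without RFR replicate 1, which favours such calls, 18 of the 44 were called higher, against 2.04% of all genes tested.

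Of 23 genes for lens membrane, fibre and transcription factors, 19 had the higher mean, with a median of 0.16 (0.10 without control replicate 2), and 2 factors (mafba and sox1a) lay above all controls.

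General markers of neurons were higher in the mean in RFR embryos for 38 of 40 genes. The median was 0.25, with 0.32 without RFR replicate 1 and 0.20 without control replicate 2. Only 2 genes lay above all controls (5%, near the 3.21% of all genes tested), vamp2 and cplx2. vamp2, the vesicle SNARE, was at 12.9, 15.6, 15.96 and 19.8 FPKM in the controls (replicates 1 to 4) and 21.1, 21.8, 22.6 and 26.6 FPKM in the RFR libraries (replicates 1 to 4) (1.43-fold, limma adjusted p = 0.468). cplx2, a complexin gene, was at 17.8, 14.6, 17.7 and 15.9 FPKM in controls and 19.3, 23.6, 21.8 and 19.1 in RFR embryos. elavl4, an RNA-binding protein gene of postmitotic neurons, was at 69.1, 63.2, 67.8 and 83.5 FPKM in controls and 73.5, 97.9, 101.1 and 96.0 in RFR embryos, with RFR replicates 2 to 4 the 3 highest. elavl3, a marker of early neurons, differed little, with control values of 165.6 to 192 FPKM and RFR values of 173 to 213 FPKM. sncb, a synuclein gene, was at 172, 139.8, 151 and 189 FPKM in controls and 174, 219, 245 and 202 in RFR embryos.

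Genes of signal transmission showed the same lean. The higher mean was in RFR embryos for 19 of 22 genes of transmitter synthesis and transport (median 0.22, 3 above all controls: slc32a1, chata and th, for GABA, acetylcholine and dopamine). It was so for 39 of 45 ligand-gated receptor genes (median 0.23, 3 above all controls). The glutamate receptor gene grik1a was at 0.59, 0.57, 0.66 and 0.89 FPKM in controls and 0.98, 0.94, 1.29 and 1.41 in RFR embryos, low but without overlap. gria4b, an AMPA receptor subunit gene, was at 7.13, 6.27, 7.13 and 7.28 FPKM in controls and 7.45, 8.83, 11.7 and 8.65 in RFR embryos. Of 36 sodium and calcium channel genes, 33 had the higher mean (median 0.22, and 0.14 without RFR replicate 3). Of 62 potassium channel genes, 47 had it (median 0.15). In each of these lists 1 gene lay above all controls (2.78% and 1.61%, against 3.21% of all genes tested). Library medians of these lists were lowest in control replicate 2 and highest in RFR replicate 3.

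Axon guidance and adhesion genes steer growing axons. Of 109, 93 had the higher mean, with a median of 0.14, which was 0.09 after quantile normalization. There were 7 above all controls and 0 below. The library medians were -0.07, -0.12, -0.00 and -0.08 in controls and 0.01, 0.04, 0.20 and 0.03 in RFR embryos, so the groups were separate by a narrow margin. ntn5, a netrin gene, was at 3.65, 4.27, 3.98 and 3.82 FPKM in controls and 4.83, 4.83, 5.49 and 5.48 in RFR embryos. nrxn3a, a presynaptic neurexin gene, was at 5.31, 5.67, 5.46 and 6.17 FPKM in controls and 6.18, 7.29, 8.01 and 7.58 in RFR embryos. efnb1, an ephrin ligand gene, was at 12.7, 12.5, 13.7 and 14.5 FPKM in controls and 17.6, 17.5, 17.1 and 14.6 in RFR embryos, with RFR replicate 4 apart from the other RFR libraries and close to the controls.

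**Figure D5:**
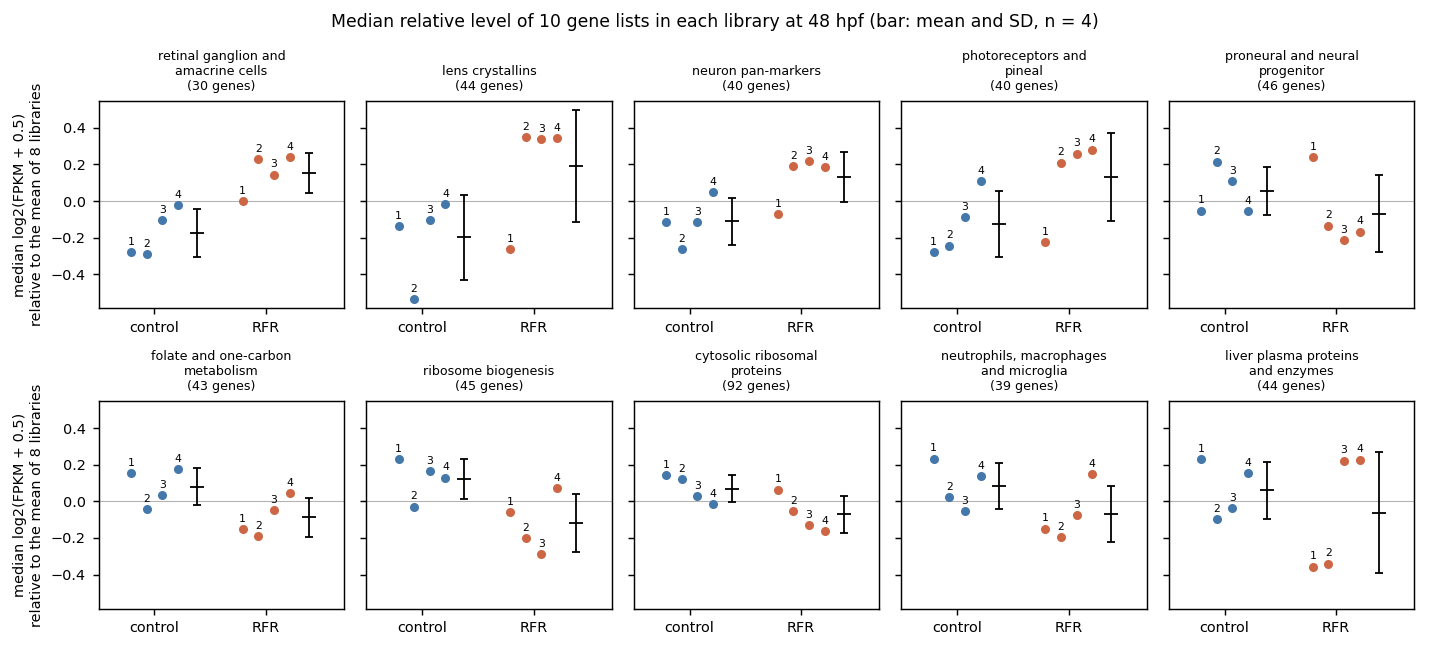
Median level of the genes of 10 lists in each library at 48 hpf, as log2(FPKM + 0.5) relative to the mean of the 8 libraries (vertical axis), with the replicate number above each point and the mean and SD (n = 4) at the right of each group. RFR replicate 1 lies with the controls for lens, neuron, photoreceptor and progenitor genes, at -0.27 for lens crystallins against 0.34 to 0.35 in RFR replicates 2 to 4.

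Serine made from glycolysis gives its carbon to folate, which supplies nucleotide synthesis and the methyl groups of methionine. Of 43 genes of this metabolism, 8 had the higher mean in RFR embryos and 35 the lower, 5 of them below all controls and 0 above, with a median of -0.17. The median was -0.19 after quantile normalization, -0.13 without RFR replicate 1, -0.20 without control replicate 2 and -0.11 without RFR replicate 2. The library medians overlapped, at 0.15, -0.04, 0.04 and 0.18 in controls and -0.15, -0.19, -0.05 and 0.04 in RFR embryos.

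shmt1, the cytosolic serine hydroxymethyltransferase that moves carbon from serine to folate, was at 46.2, 33.5, 38.7 and 40.5 FPKM in the controls (replicates 1 to 4) and 28.2, 25.6, 26.8 and 27.1 FPKM in the RFR libraries (replicates 1 to 4). The RFR libraries lay close together and all under the lowest control, control replicate 2. The means were 39.7 ± 5.26 FPKM in controls and 26.9 ± 1.08 in RFR embryos (SD, n = 4 each; log2 fold change -0.54 ± 0.0964, SE; limma adjusted p = 0.468). phgdh and psat1 catalyse the first steps of serine synthesis. phgdh was at 50.7, 44.3, 40.8 and 56.9 FPKM in controls and 35.0, 33.1, 29.0 and 35.4 in RFR embryos, and psat1 at 63.0, 65.4, 61.3 and 84.9 FPKM in controls and 47.1, 44.1, 44.1 and 54.4 in RFR embryos. In both, RFR replicate 1 lay within the range of the other RFR libraries, and control replicate 4 was the highest. The folds toward controls were 1.44 and 1.44.

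mat2ab makes S-adenosylmethionine, the methyl donor of the cell, and was at 5.36, 3.66, 5.59 and 8.43 FPKM in controls and 3.05, 3.05, 2.95 and 2.64 in RFR embryos. The 4 RFR values lay close together, while control replicate 4 was far above the other controls and control replicate 2 nearest to the RFR libraries. The fold was 1.76 toward controls. aldh1l2, the mitochondrial formyltetrahydrofolate dehydrogenase, was at 11.8, 9.63, 11.1 and 12.8 FPKM in controls and 8.38, 8.6, 8.12 and 9.49 in RFR embryos, the last of the 5 without overlap. dmgdh (1.26-fold) and mthfd2 (1.25-fold toward controls), both mitochondrial enzymes of the pathway, overlapped by 1 library. atf4a, a transcription factor that drives serine synthesis genes in mammals, had a log2 fold change of -0.18 and no overlap, at an unadjusted p of 0.018. aars, a target of the same factor in mammals, was at 66.7, 67.5, 57.7 and 69.5 FPKM in controls and 53.7, 49.5, 50.2 and 49.1 in RFR embryos. Over the 42 genes of the unfolded protein and integrated stress responses, 25 had the higher mean and the median was 0.02, which became negative under both other scalings. In this list 2 genes (4.76%, against 1.37% of all genes tested) lay below all controls and 0 above. An unadjusted limma p under 0.05 came with the lower mean for 4 of them and with the higher mean for 0.

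Genes of neutrophils, macrophages and microglia had the lower mean in RFR embryos for 33 of 39, with 5 below all controls and a median of -0.16. The median was -0.25 without RFR replicate 4 and -0.08 without control replicate 1. Of cathepsin and lysosome genes, 12 of 34 had the higher mean, 3 lay below all controls and the median was -0.10, which was -0.03 without RFR replicate 2. ctsh, a cathepsin H gene, was at 16.2, 16.4, 11.6 and 11.2 FPKM in the controls (replicates 1 to 4) and 10.6, 6.58, 7.35 and 7.79 FPKM in the RFR libraries (replicates 1 to 4). npc2, which carries cholesterol out of lysosomes, was at 135, 138, 124 and 117 FPKM in controls and 99.2, 86.1, 104 and 106 in RFR embryos. acp5a, the tartrate-resistant acid phosphatase of macrophages and osteoclasts, was at 109, 76.8, 51.9 and 49.0 FPKM in controls and 46.9, 22.9, 33.9 and 27.8 in RFR embryos, with wide spread and a narrow gap between the groups. apoeb, an apolipoprotein E gene of microglia and of the yolk syncytial layer, was at 929, 929.8, 1006 and 791 FPKM in controls and 737, 592, 708 and 713 in RFR embryos. fcer1gl, an Fc receptor gamma chain gene, was at 9.0, 7.9, 7.33 and 7.26 FPKM in controls and 6.99, 5.06, 6.06 and 6.36 in RFR embryos.

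The neutrophil gene mpx did not share this, with a log2 fold change of 0.17 (unadjusted p = 0.22), nor did the macrophage gene mpeg1.2 stand out at -0.23 (unadjusted p = 0.2). Liver and complement genes varied with single libraries rather than with the groups. The median of 44 liver genes was -0.36 and -0.34 in RFR replicates 1 and 2 but 0.22 and 0.23 in RFR replicates 3 and 4, and it was 0.23, -0.10, -0.04 and 0.16 in controls. The 29 complement and acute phase genes were likewise lowest in RFR replicates 1 and 2 (-0.34 and -0.46) and at 0.10 and 0.31 in RFR replicates 3 and 4. apoa4b.3, a lipoprotein gene of yolk and gut, had a fold of 2.89 toward controls, yet its groups were widely spread and overlapped, at 35.2, 12.2, 25.0 and 17.6 FPKM in controls and 3.67, 4.36, 13.6 and 10 in RFR embryos. The part of these library differences in the macrophage, lysosome and lipoprotein values was not tested.

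Ribosomes are assembled in the nucleolus, and this takes much of a growing cell's effort. Of 45 ribosome biogenesis genes, 43 had the lower mean in RFR embryos, 7 lay below all controls and 0 above, and the median of -0.25 was the lowest of all lists. It was -0.27 after quantile normalization, -0.30 after median-ratio scaling, and between -0.31 and -0.19 when single libraries were left out. Library medians were 0.23, -0.03, 0.16 and 0.13 in controls and -0.06, -0.20, -0.29 and 0.07 in RFR embryos. RFR replicate 4 lay above control replicate 2, so the groups overlapped.

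wdr43, a subunit of the complex that processes small-subunit rRNA, was at 33.0, 32.3, 28.4 and 30.0 FPKM in the controls (replicates 1 to 4) and 27.3, 23.9, 23.1 and 22.4 FPKM in the RFR libraries (replicates 1 to 4), without overlap. nop56, a core protein of the particles that methylate rRNA, was at 68.8, 59.0, 69.8 and 68.8 FPKM in controls and 54.7, 50.7, 45.5 and 60.2 in RFR embryos, where RFR replicate 4 passed control replicate 2. ncl, nucleolin, was at 186, 186, 180.3 and 177 FPKM in controls and 159, 139.6, 142 and 168 in RFR embryos, and mybbp1a, a nucleolar protein gene, at 16.1, 14.6, 14.2 and 14.4 FPKM in controls and 12.4, 10.9, 11.1 and 12.9 in RFR embryos. Folds toward controls were 1.27, 1.26, 1.2 and 1.25, and the limma adjusted p 0.468 to 0.472.

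Cytosolic ribosomal protein genes had the lower mean for 83 of 92, and 17 (18.5%) lay below all controls. The share of all genes is a poor measure for genes this abundant. Among the 276 genes at 300 FPKM or more, rps23 and rpl38 included, 35.9% had the higher mean and 23 lay below all controls. That class holds ribosomal protein genes itself, so it is not a separate background for this list. The ribosomal protein list also depends on scaling: its median was -0.15 as deposited, -0.04 under quantile normalization and -0.20 under median-ratio scaling. rps23 was at 863, 823, 783 and 795 FPKM in controls and 720.5, 714, 653 and 662 in RFR embryos, and rpl38 at 481, 431, 464 and 438 FPKM in controls and 386, 390.2, 387 and 398 in RFR embryos. The row named rps8b (1.14, 1.54, 1.37 and 1.66 FPKM in controls and 2.74, 2.71, 2.19 and 1.87 in RFR embryos), far lower in level than rps23 and rpl38, went the other way. Of 77 mitochondrial ribosomal protein genes, 28 had the higher mean and the median was -0.02 (-0.07 without RFR replicate 4 and 0.02 without RFR replicate 3).

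Genes of the cell cycle and DNA replication had the lower mean for 64 of 71, 5 of them below all controls, with a median of -0.18 and of -0.21 after quantile normalization. It was -0.24 without RFR replicate 1 and -0.10 without RFR replicate 3, in which the list had its lowest library median (-0.35 against -0.10 to 0.07 in the other RFR libraries). mcm4, a subunit of the replicative helicase, was at 64.6, 58.8, 65.6 and 65.5 FPKM in the controls (replicates 1 to 4) and 55.5, 48.3, 37.2 and 54.5 FPKM in the RFR libraries (replicates 1 to 4). uhrf1, which keeps DNA methylation through replication, was at 26.9, 26.1, 23.2 and 24.5 FPKM in controls and 21.0, 20.5, 16.9 and 21.2 in RFR embryos. Both were without overlap, with folds of 1.31 and 1.26 toward controls and limma adjusted p of 0.477 and 0.472.

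The stress lists differed in direction: heat shock genes had mostly lower means, and immediate-early and clock genes mostly higher means. Of 62 heat shock proteins and cochaperones, 19 had the higher mean, 2 lay below all controls and 0 above, and the median was -0.09 (-0.04 without control replicate 1). The inducible gene hsp70.3 was at 34.2, 27.7, 29.6 and 10.6 FPKM in the controls (replicates 1 to 4) and 12.4, 12.2, 6.18 and 13.99 FPKM in the RFR libraries (replicates 1 to 4), with the controls widely spread and control replicate 4 inside the RFR range. hsp90aa1.1, a muscle chaperone gene in the zebrafish, was at 121, 43.1, 87.0 and 57.2 FPKM in controls and 41.1, 40.0, 33.0 and 53.2 in RFR embryos, with control replicate 1 highest. unc45b, the myosin chaperone gene, was at 26.5, 18.1, 25.1 and 16.4 FPKM in controls and 16.1, 11.4, 9.81 and 14.2 in RFR embryos, and dnajb1b, a cochaperone of Hsp70, at 12.2, 9.14, 11.03 and 7.68 FPKM in controls and 7.02, 7.65, 6.54 and 6.4 in RFR embryos, both narrowly without overlap. The hsp70 genes are near-identical copies, so their single values are uncertain.

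Of 48 oxidative stress and Nrf2 genes, 21 had the higher mean (median -0.04, and -0.00 without RFR replicate 3), 1 lay above and 4 below all controls. hmox1a, heme oxygenase, was at 32.2, 15.3, 22.99 and 16.9 FPKM in controls and 13.6, 8.28, 13.2 and 12.7 in RFR embryos. gpx1b, a glutathione peroxidase gene at low level, was at 1.52, 1.38, 1.34 and 1.47 FPKM in controls and 2.07, 2.42, 2.03 and 2.13 in RFR embryos. Of 46 genes of the p53 and DNA damage response, 26 had the higher mean and the median was 0.02 (-0.03 after median-ratio scaling). In this list 2 genes (4.35%) lay above all controls and 3 (6.52%) below, against 3.21% and 1.37% of all genes tested. An unadjusted limma p under 0.05 came with the higher mean for 5 of them and the lower mean for 7. sesn1 and sesn2, sestrin genes that answer to p53 and nutrient stress, went opposite ways, at 20.5, 22.2, 22.9 and 21.5 FPKM in controls and 24.4, 27.5, 26.0 and 25.4 in RFR embryos for sesn1 and 5.03, 5.44, 4.14 and 7.55 FPKM in controls and 3.92, 3.89, 4.0 and 3.85 in RFR embryos for sesn2. Of 41 hypoxia genes, 21 had the higher mean and ndrg1b was the 1 without overlap. Immediate-early and stress axis genes had the higher mean for 35 of 47 (median 0.11, 0.06 after quantile normalization and 0.05 without control replicate 2). Of these, egr1 lay above all controls (2.13% of the list, against 3.21% of all genes tested). Clock genes had the higher mean for 36 of 44 (median 0.12), and 3 (6.82%) lay above all controls. Without RFR replicate 3, the library with the highest clock median (0.26), the list median was 0.04. nfil3-5, of the Nfil3 family of bZIP factors, was at 35.9, 36.7, 40.9 and 41.7 FPKM in controls and 44.0, 43.5, 45.8 and 46.1 in RFR embryos.

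Blood genes had mostly lower means, and muscle, heart, vessel and skin genes stood near all genes. Of 12 globin genes, 3 had the higher mean and the median was -0.19, but 0.03 without RFR replicate 4, the library with the lowest globin median (-0.43). Of 36 heme and erythroid genes, 9 had the higher mean and 4 (11.1%, against 1.37% of all genes) lay below all controls. The median was -0.14, with -0.18 under quantile normalization and -0.19 under median-ratio scaling, and it ran from -0.19 without control replicate 4 to -0.07 without RFR replicate 4. Among the 4 were blvra at 3.7, 4.3, 4.33 and 4.2 FPKM in controls and 3.19, 2.25, 2.55 and 3.28 in RFR embryos and blvrb at 18.3, 20.1, 20.1 and 19.8 FPKM in controls and 15.9, 17.3, 15.7 and 15.8 in RFR embryos, the biliverdin reductase genes. Skeletal muscle genes were divided, 58 of 108 higher with a median of 0.03, and -0.02 under median-ratio scaling. Their log2 fold changes ran from -0.63 to 0.78. In this list 2 genes (1.85%) lay above all controls and 4 (3.70%) below. An unadjusted limma p under 0.05 came with the higher mean for 6 genes of the list and the lower mean for 5. smyd1b, a methyltransferase needed for myosin assembly, was nevertheless at 38.56, 39.9, 38.4 and 37.7 FPKM in controls and 33.2, 31.9, 28.3 and 34.6 in RFR embryos, and tpm2, a tropomyosin gene, at 158, 146, 153 and 157 FPKM in controls and 136, 139.8, 132 and 118 in RFR embryos, both without overlap. Heart (16 of 32, median -0.01), endothelium (19 of 36, 0.03) and skin genes (43 of 72, 0.05) stood close to all genes.

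Hox genes, which give positions along the body axis, had the higher mean for 37 of 49, with 4 above all controls and a median of 0.13 (0.10 after quantile normalization). Without RFR replicate 1, which had the highest Hox library median (0.18), the value was 0.08. hoxb8a was at 24.6, 25.7, 26.3 and 27.0 FPKM in controls and 29.3, 32.9, 28.7 and 31.7 in RFR embryos. Pigment cell genes had it for 32 of 41, with a median of 0.10 that was 0.05 after median-ratio scaling. Their library medians were -0.08 to -0.03 in controls and 0.03 to 0.16 in RFR embryos. The melanin gene oca2 was at 4.96, 5.21, 4.87 and 5.21 FPKM in controls and 7.32, 5.97, 6.52 and 5.46 in RFR embryos. pts, an enzyme of pteridine pigments and of the tetrahydrobiopterin cofactor, was lower in the mean, at 55.5, 59.6, 56.3 and 48.1 FPKM in controls and 52.4, 41.2, 39.8 and 38.5 in RFR embryos, with RFR replicate 1 inside the control range. Respiratory chain (67 of 108 higher, median 0.03), proteasome (31 of 49, 0.03) and glycolysis genes (16 of 38, -0.02) stood near 0, with medians that changed sign when single libraries were left out.

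Noncoding transcripts without a gene symbol were also among the genes with the smallest p, and 3 are named here after their values were seen. XR_659546.2 was listed at 0 in all RFR libraries and at 3.96, 2.28, 4.48 and 0.92 FPKM in controls, and was the 1 gene called in the 16-library fit (limma adjusted p = 0.0016, and 0.105 in the 48 hpf libraries alone, with 2.11e-06 to 0.417 over all alternatives). XR_002459562.1 was listed at 0 in all controls and stood at 1.71, 0.6, 1.12 and 1.87 FPKM in RFR embryos (limma adjusted p = 0.105). XR_001798939.2 was at 0.38, 0.3, 0 and 0 FPKM in controls and 1.86, 3.1, 1.12 and 1.09 in RFR embryos (limma adjusted p = 0.468). All 3 passed the filter through 1 group alone, in which they had to be higher, so their directions and p-values support nothing, and no fold is given against a group listed at 0. Over the 1226 noncoding transcripts tested, 631 had the higher mean, 21 lay above all controls and 25 below, and the median was 0.01.

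At 120 hpf, days after the exposure, the lists of the eye, neurons, ribosome assembly and folate metabolism stood nearer to 0 than at 48 hpf, but the test of the difference between the stages called 0 genes (limma interaction in the 16-library fit, smallest adjusted p = 0.135; 1466 genes, 7.32%, had an unadjusted p under 0.05). hmx4 was then at 10.48 ± 0.835 FPKM in controls and 10.48 ± 1.31 in RFR larvae (SD, n = 4 each), sirt3 at 6.9 ± 0.258 FPKM in controls and 7.09 ± 0.802 in RFR larvae, and shmt1 at 23.3 ± 1.06 FPKM in controls and 21.6 ± 2.45 in RFR larvae. otx5 was at 19 ± 0.988 FPKM in controls and 20.5 ± 1.32 in RFR larvae. These genes had been named for a small p at 48 hpf, so closer group means at 120 hpf can follow from that choice alone. The same holds for lists shown for their medians at 48 hpf. For the retinal ganglion and amacrine list the median log2 fold change was 0.34 at 48 hpf and -0.06 at 120 hpf. It was 0.25 and -0.07 for neuron markers, 0.35 and 0.07 for lens crystallins, -0.25 and 0.08 for ribosome biogenesis, and -0.17 and -0.01 for folate metabolism. For the cell cycle it was -0.18 and -0.19, nearly the same at both stages, and for immediate-early and stress axis genes it was larger at 120 hpf (0.31) than at 48 hpf (0.11).

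Between the stages, most of these lists differed by more. From 48 to 120 hpf in controls, the median log2 difference was 0.88 for neuron markers, 1.1 for lens crystallins, 3.27 for photoreceptor and pineal genes, -1.56 for proneural genes and -1.68 for the cell cycle. For the RFR difference at 48 hpf these lists stood at 0.25, 0.35, 0.25, -0.14 and -0.18. In the retinal ganglion and amacrine list the signs were opposite, -0.27 in development and 0.34 for RFR, and in folate metabolism the values were 0.05 and -0.17. Both comparisons share the control libraries of 48 hpf, so the values are set side by side only.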

How the data were processed

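RNA-seq libraries of whole embryos were used, 4 per group at each stage. The authors deposited FPKM values, per the file headers. Per the submitters' processing notes, GRCz11 is named as a build and Bowtie2, HISAT2 and DESeq2 as tools, without their roles. The program behind the FPKM values: not given in the sources used here. Further deposited tables hold counts of reads and of detected genes, and in percent the reads kept, rRNA, bases at quality 30 or above and reads mapped, per the file headers. In the table, 6365 rows have no usable gene symbol, 16 of them because a spreadsheet had turned it into a date.

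Since the expression values are no counts, limma 3.58.1 (R 4.3.3) was fitted to log2(FPKM + 0.5) of the 8 libraries of 48 hpf, with a mean-variance trend and 6 residual degrees of freedom, for the 20019 genes that reached 0.5 FPKM in 4 or more of them. The two-sided p-values were adjusted over all genes tested by the Benjamini-Hochberg method, and the threshold was 0.05. Fold changes are on the log2(FPKM + 0.5) scale and understate those of low genes. The script was tested on simulated data. Single values per library were compared by exact permutation over 70 splits (SciPy 1.17.1).

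The members, the 57 gene lists and the tests were chosen with earlier results of these data known. The rule named the 15 genes with the smallest p on each side. They had to average 1 FPKM or more and to have a symbol other than a clone or locus name. In each list it named the 2 genes with the smallest p and the 2 with the highest level, not all of which are printed. Further genes were named after their values were seen: rbpms2b, pax6a, irx2a, pou4f2, isl2b, isl1, crx, ascl1a, atoh1a, her4.2, crygm2d15, elavl4, nrxn3a, aldh1l2, dmgdh, mthfd2, fcer1gl, nop56, rpl38, hsp70.3, hsp90aa1.1, sesn2 and genes named only as members of a list. List members were matched by symbol (2936 entries), by current symbol (66) or by synonym (9) in an NCBI RefSeq gene table of assembly GRCz12tu, used for names only, and 39 stayed unmatched.

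Alternatives were the fit of all 16 libraries (12 residual degrees of freedom), the replicate number as a block, replicates 1 to 3 only, pseudocounts of 0.1 and 1, other filters, quantile and median-ratio scaling, library weights, and each library left out. The 16-library fit without each library of 48 hpf was added after the data were seen.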

Additional observations from a re-analysis of the deposited data

Results flagged for a closer look

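In 22 of 306 groups of 4 libraries, 1 library lay far from the others (gap over range above Dixon's critical value of 0.829). Chance flags about 1 in 20 groups. RFR replicate 1 stood apart from the other RFR libraries in 6 of them. It was at 6.28 FPKM for cnih2, 9.58 for riox2 and 15.9 for ascl1b, and its library medians were -0.0729 for neuron markers, -0.224 for photoreceptor and pineal genes and -0.265 for lens crystallins. Control replicate 2 stood apart at 6.27 FPKM for gria4b, 59.03 for nop56, 58.78 for mcm4 and 0.71 for aanat2, and by library medians of -0.323 for transmitter synthesis and transport and -0.0497 for the tricarboxylic acid cycle.

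Among the remaining libraries, control replicate 1 was apart at 3.05 FPKM for sirt3 and 21.97 for rbp4l, control replicate 3 at 15.79 for hoxb5a and control replicate 4 at 8.46 for bet1. RFR replicate 2 was apart at 8.28 FPKM for hmox1a and 17.32 for blvrb. RFR replicate 3 was apart at 16.9 FPKM for uhrf1 and by a library median of 0.159 for pigment cell genes. RFR replicate 4 was apart at 14.56 FPKM for efnb1 and by a library median of 0.208 for sterol synthesis genes.

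ppp1r14ba went opposite ways at the 2 stages in every library. At 48 hpf all RFR libraries lay above the controls (log2 fold change 0.4706). At 120 hpf all lay below them, at 29.4 ± 1.55 FPKM in controls and 24.04 ± 3.25 in RFR larvae (SD, n = 4 each). The limma test of the difference between the stages gave an adjusted p of 0.455.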

How the results depend on the processing

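The count of changed genes was 0 in the 48 hpf libraries. It was 1 with all 16 libraries, 1 with replicates 1 to 3 only and 1 with no filter, and 3 with a pseudocount of 0.1. Over the fits that left out 1 library, including those of 16 libraries, it ran from 0 to 454, and 454 was reached only without RFR replicate 1. The genes called in the settings with 3 or fewer calls on the 48 hpf libraries were ctss2.1 and the noncoding XR_659546.2, XR_002459562.1 and XR_001796650.2. The count with an unadjusted p under 0.05 was 1843, 2868 with library weights and 1138 to 2994 with 1 library left out: 1138 without RFR replicate 2, 1172 without control replicate 1, 1223 without RFR replicate 3 and 2808 without RFR replicate 1 in the 48 hpf libraries. The test between the stages called 0 genes, and 0 to 1 with 1 library left out (1 without RFR 48 hpf replicate 1, 1 without control 48 hpf replicate 4).

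With the replicate number as a block, 0 genes were called at 48 hpf, 2065 had an unadjusted p under 0.05 and the test between the stages called 0. The labels link same-numbered libraries by the number only. Their deviations from the group means correlated at -0.12, -0.06, 0.16 and 0.35 for numbers 1 to 4, and control replicate 2 correlated best with RFR replicate 1 (0.37). The replicate 4 libraries also lay together on the second principal component (-25.2 and -24.0) and had other raw read totals. Whether they were a separate batch was not tested. As numbers 1 and 2 correlated negatively, the pairing is not used above.

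None of the 95 genes followed under every alternative changed direction. They had been named mostly for a small p or after their values were seen, and the alternatives refit the same libraries. A stable direction was therefore likely beforehand and says little. The other genes were fitted as well, but their directions were not compared one by one. Of the values of these 95, 2411 stayed on the same side of the threshold and 56 passed it, most of these in the 16-library fit without RFR replicate 1. List medians near 0 changed sign with scaling or single libraries, among them proteasome, respiratory chain, glycolysis, hypoxia, p53, muscle and endothelium. Replicate 4 gives 1 library per group, so its own difference has no test. Depth (39603976 to 48933040 reads after filtering) limits what can be seen in genes near 0.5 FPKM.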

Other observations

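Other gene groups give values not described above. Among 33 inner ear and lateral line genes, 25 had the higher mean in RFR embryos (median 0.08). Beside hmx4, its relative hmx3a lay above all controls, and oc90, an otolith matrix gene, had a log2 fold change of -0.81 (unadjusted p = 0.0057). Cartilage and bone genes had the higher mean for 34 of 46 (median 0.06, 0.13 without RFR replicate 1 and 0.02 under median-ratio scaling). An unadjusted limma p under 0.05 came with the higher mean for 3 of them and the lower mean for 3. The lowest log2 fold change was -0.85, and 1 gene lay below all controls. The cartilage factors sox5, sox6 and sox9a and the matrix gene hapln1a lay above all controls, with log2 fold changes of 0.26, 0.31, 0.20 and 0.11. Kidney factors wt1a and pax2a also lay above all controls (0.39 and 0.30), while the 38 ionocyte and pronephros genes as a group did not lean (16 higher, median -0.01). The 31 hypothalamus and pituitary genes did not lean as a group (16 higher, median 0.02, and negative under both other scalings). An unadjusted limma p under 0.05 came with the higher mean for 4 of them and the lower mean for 2. The somatostatin genes sst1.1 and sst3 and the enkephalin gene penka lay above all controls (0.61, 0.48 and 0.46), and 0 genes lay below. None passed limma's adjusted threshold, and all of these genes were named after their values were seen.

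Other lists of cell machinery and metabolism were as follows, with the count of higher means in RFR embryos and the median log2 fold change. Translation factors (18 of 79, -0.08), splicing proteins (24 of 75, -0.03) and sterol synthesis enzymes (8 of 28, -0.09) had mostly lower means, as did apolipoprotein and yolk lipid genes (7 of 28, -0.12). Of these, eef1b2, eif2s3, eif2b1 and apoeb lay below all controls. The tricarboxylic acid cycle (16 of 27, 0.02), histone and germ line genes (9 of 21, -0.00), aryl hydrocarbon receptor genes (9 of 13, 0.01), secreted developmental signals (39 of 66, 0.04) and hatching gland genes (5 of 15, -0.04) stood near 0. Collagen genes had the higher mean for 43 of 55 (0.06). Glial (16 of 25, 0.13), interferon and inflammation (20 of 30, 0.09), pancreas and intestine (19 of 30, 0.10) and myogenic factor genes (14 of 24, 0.04) had shares of higher means near the 60.4% of all genes. Several of these medians moved by over 1.5 times with single libraries: without RFR replicate 3 they were 0.02 for collagens, 0.04 for interferon and inflammation, -0.05 for translation factors, 0.01 for splicing proteins and -0.02 for sterol synthesis. The pancreas and intestine median was 0.06 without control replicate 2, and that of apolipoproteins -0.05 without RFR replicate 2.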
